A study of Mus musculus with 2 samples.

Results

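Dense clusters of distal accessible regions were described in the chromatin of inflammation-experienced regulatory T (Treg) cells. Peaks had been kept by the authors when they ranked alike in paired sets of reads, by their irreproducible discovery rate (IDR). Merged, they made 29415 accessible regions, of which 18613 had their summit, the point of greatest enrichment, over 1000 bp from every protein-coding transcript start. These distal regions were joined into a chain wherever the gap between the edges of neighbours was at most 12.5 kb. The members are the 2244 distal regions in chains of 5 or more. They made up 12.1% of the distal regions (95% exact binomial interval 11.6 to 12.5%) and 7.63% of all regions (7.33 to 7.94%), and they formed 355 chains. Members were selected on where regions were called in the same libraries that give their heights, so all values below describe them and none is a test. The threshold cut through a continuous range. The longest gap inside a chain was 12488 bp and the shortest gap that ended one was 12509 bp. The 153 chains of 5, just inside, spanned 23.6 kb at the median and their regions had a median fold of 9.60 over background, while the 345 chains of 4, just outside, spanned 16.9 kb and had a median fold of 9.70.

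The cells were those of an adult male mouse aged 6 months of the strain Foxp3CreERT2 x Rosa26YFP, in which the promoter of Foxp3, the factor that defines Treg cells, drives a drug-inducible Cre recombinase and the Rosa26 locus carries a yellow fluorescent reporter. ATAC-seq, which cuts and tags open DNA with the transposase Tn5, was performed in 2 technical replicates of 1 biological replicate. Both come from the same donor and form 1 group. The labels give a bone marrow hematopoietic cell as the origin, and state neither the kind of inflammation nor how the cells were sorted. The peak lists are taken to pool the libraries, so no spread between replicates and no comparison of conditions could be had, and intervals cover counting error only and treat regions as independent although neighbours share a locus. Defining genes of Treg cells had open chromatin: all 10 Treg markers examined had at least 1 distal region and 9 had a promoter region, although that of Foxp3 is shared with the neighbouring gene Ppp1r3f. Of the defining markers of other cells, 1 of 5 B cell genes, 2 of 6 myeloid genes, 1 of 5 genes of CD8 T and NK cells and 0 of 3 genes each of erythroid, liver, muscle and nerve cells had a promoter region. A distal region was nearest to 2 of 5 B cell, 2 of 6 myeloid, 1 of 5 CD8 T and NK cell, 1 of 3 erythroid, 1 of 3 liver, 2 of 3 muscle and 1 of 3 nerve cell genes, and none of these regions was a member. Of all 21829 protein-coding genes, 49.7% had a promoter region, 14809 had no distal region and 1.81% were nearest to a member. Members are 12.1% of distal regions, so their absence from so few regions says little. Among 7 T cell markers 5 had a promoter region, and Cd4 and Thy1 did not, while 6 had a distal region.

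Enhancers are stretches of DNA, often far from the gene they act on, that bind transcription factors and are cut readily by Tn5 when in use. Several enhancers often lie close together near genes that set a cell's identity, and joining neighbours within a fixed distance is the first step by which super-enhancers are defined. That definition also needs a signal such as H3K27ac, Mediator or a master factor, which was not measured here, so the clusters are called chains and not super-enhancers. In T cells, factors of the ETS and RUNX families bind widely, and AP-1 factors join them on activation. CTCF, by contrast, is best known for anchoring chromatin loops.

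The sequences below are the 101 bp around the highest summit of 10 chains, read from the plus strand of GRCm38. They are shown because they carry the most enriched point of each cluster at the chains with most members (Tnfrsf1b, Rhoh, Atxn1 and an unnamed chain whose closest coding start is that of Mkln1), at Treg genes (Ctla4, Icos, Tnfrsf18, Irf4 and Il10) and at the densest chain (Hist1h4h). In order they lie at chr4:145254621-145254721, chr5:65929328-65929428, chr13:45935969-45936069, chr6:31157168-31157268, chr1:60868536-60868636, chr1:60961228-60961328, chr4:156004237-156004337, chr13:30786264-30786364, chr1:131010653-131010753 and chr13:23517634-23517734. Capitals mark matches on either strand to ETS (AGGAAGT, or its core GGAAGT in Atxn1), RUNX (TGTGGTT), AP-1 (TGANTCA) and CTCF (CCANNAGNG), and in Hist1h4h the bases of a tRNA gene. No match to TCF/LEF (ATCAAAG), NF-kB (GGGANTTTC) or NFAT (TGGAAAA) was found in them. The highest summits of Fam208a, Crbn and Il2ra, chosen by the same rule, held none of these motifs and are not shown. Labels are chain names: the highest member of the Rhoh chain was nearest to Chrna9, and that of the Tnfrsf18 chain to Tnfrsf4.
Tnfrsf1b: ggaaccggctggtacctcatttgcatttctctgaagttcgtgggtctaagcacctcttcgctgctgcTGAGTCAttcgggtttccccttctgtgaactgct
Rhoh: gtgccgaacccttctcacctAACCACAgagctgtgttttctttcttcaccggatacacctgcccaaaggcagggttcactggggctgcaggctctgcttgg
Atxn1: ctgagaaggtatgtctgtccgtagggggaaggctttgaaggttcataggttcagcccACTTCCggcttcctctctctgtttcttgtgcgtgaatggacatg
Mkln1: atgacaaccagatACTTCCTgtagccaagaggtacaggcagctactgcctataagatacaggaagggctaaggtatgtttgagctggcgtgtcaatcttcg
Ctla4: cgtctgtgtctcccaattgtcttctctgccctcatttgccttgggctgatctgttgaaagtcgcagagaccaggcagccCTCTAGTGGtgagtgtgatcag
Icos: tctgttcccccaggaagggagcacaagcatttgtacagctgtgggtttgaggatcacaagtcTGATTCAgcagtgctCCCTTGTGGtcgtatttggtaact
Tnfrsf18: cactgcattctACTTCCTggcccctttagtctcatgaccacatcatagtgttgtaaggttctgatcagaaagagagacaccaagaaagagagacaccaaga
Irf4: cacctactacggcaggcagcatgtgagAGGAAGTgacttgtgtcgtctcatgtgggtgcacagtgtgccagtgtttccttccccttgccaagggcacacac
Il10: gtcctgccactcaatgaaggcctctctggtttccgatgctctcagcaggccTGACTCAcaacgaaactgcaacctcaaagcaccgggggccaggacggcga
Hist1h4h: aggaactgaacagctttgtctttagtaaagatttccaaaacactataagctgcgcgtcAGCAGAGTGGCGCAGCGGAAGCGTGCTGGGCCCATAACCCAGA
The 10 windows do not share 1 motif. AP-1 stood at Tnfrsf1b, Icos and Il10, ETS at Atxn1, Mkln1, Tnfrsf18 and Irf4, RUNX at Rhoh, and CTCF at Ctla4 and beside AP-1 at Icos.

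Most chains were short. Of the 355 chains, 153 had 5 members, 89 had 6 and 53 had 7, whereas 22 (6.20%, 3.92 to 9.23%) had 10 or more and the longest had 20. The median chain spanned 28.4 kb (quartiles 21.5 and 35.5 kb, range 7.83 to 120 kb), and neighbours inside a chain were a median of 4743 bp apart (quartiles 1738 and 7881 bp). Chains together spanned 10.8 Mb, or 0.395% of the assembled chromosomes, of which the members themselves took up 1.26 Mb. They lay on 20 of the 21 chromosomes. Chromosome 10 had the most chains for its length, 2.14 per 10 Mb, and among the autosomes chromosome 3 had the fewest, 0.687 per 10 Mb; chromosome X had 0.234 per 10 Mb and chromosome Y none.

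**Figure D1:**
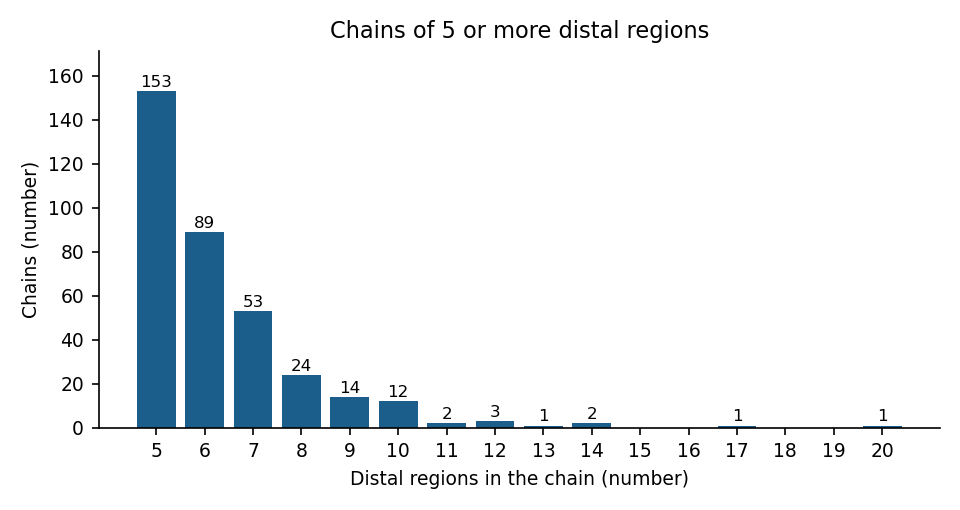
Number of chains (y axis) by the number of distal regions they hold (x axis), for chains of 5 or more. Counts fall from 153 chains of 5 to single chains of 13, 17 and 20.

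Members were less enriched than other distal regions, although their peaks were called with about the same strength. Fold enrichment is the ratio of signal at the summit to background that the authors' peak caller gave. Its median was 8.74 in members (95% interval of the median 8.52 to 9.03), 11.1 in distal regions in chains of 2 to 4 (10.9 to 11.2) and 13.5 in the 8331 distal regions with no neighbour within reach (13.4 to 13.6). The −log10 p of the peak did not follow the same order, with medians of 72.1 (69.3 to 75.2), 72.4 (70.9 to 73.9) and 65.0 (63.9 to 66.2) in these 3 sets. The gap in fold remained among regions of like −log10 p. With distal regions split into 5 equal classes by −log10 p, members had the lowest median fold of the 3 sets in each class. The median fold in the lowest class was 5.38 in members and 9.35 in regions with no neighbour, and in the highest class it was 14.0 in members and 20.3 in regions with no neighbour. Within the members, the fold was lower where neighbours were closer. The 800 members with no other distal summit within 5000 bp had a median fold of 12, against 8.42 with 1 such neighbour, 6.49 with 2 and 5.14 with 3 or more. Their median −log10 p was 77.7, 76.9, 61.0 and 60.3 in that order. No source used here states which background the caller took, and its part in the lower fold of crowded regions was not tested. Members were also narrower, with a median width of 522 bp (509 to 536) against 568 bp (560 to 574) in regions with no neighbour, and 39.6% of members (37.6 to 41.7%) held more than 1 summit, against 43.8% (42.7 to 44.8%) of regions with no neighbour.

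**Figure D2:**
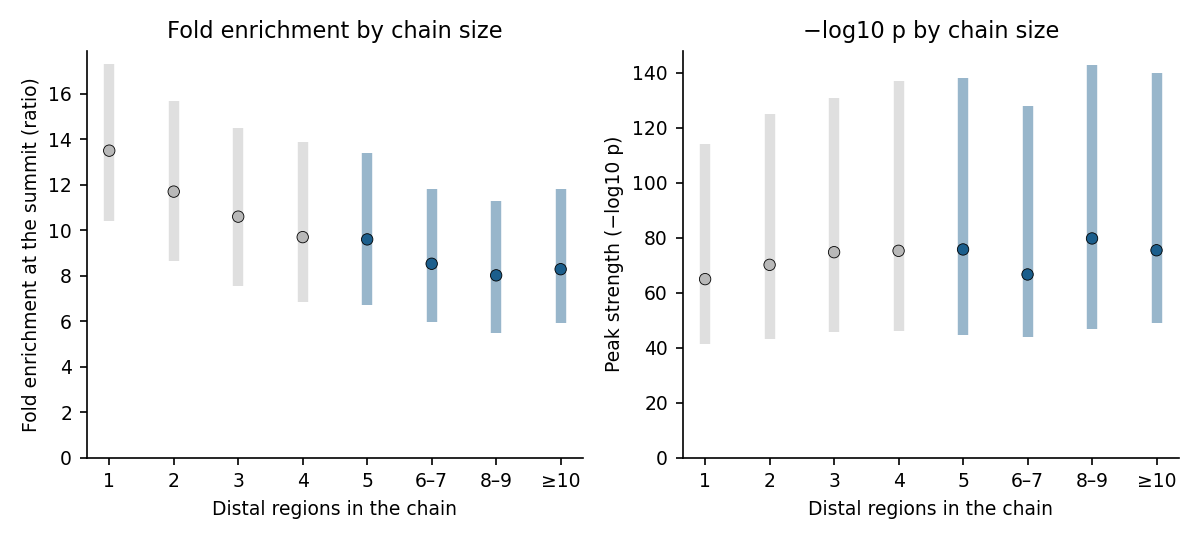
Fold enrichment (left, ratio) and −log10 p (right) of distal regions by the number of regions in their chain. Points are medians and bars span the quartiles, in blue for members and grey for shorter chains. The median fold falls from 13.5 in single regions to 8.29 in chains of 10 or more, while the median −log10 p lies between 65.0 and 79.8 throughout.

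A chain was not a row of equal peaks. The highest member of a chain had 2.98 times the fold of the lowest at the median chain (quartiles 2.29 and 3.85), and in 303 chains (85.4%) it had at least 2 times. The highest member alone held a median of 26.7% of the summed fold of its chain. These highest members had a median fold of 16 (15.4 to 16.5), against 7.91 (7.67 to 8.10) for the remaining 1889 members, a difference that choosing the highest of each chain creates. The highest member was the first or last of its chain in 162 chains (45.6%, 40.4 to 51.0%), whereas first and last members made up on average 33.5% of the members of a chain. First and last members, which have a neighbour on 1 side only, had a median fold of 9.79 (9.35 to 10.3), against 8.33 (8.04 to 8.60) for inner members, and both had nearly the same median −log10 p (72.1 and 72.2).

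Members lay in introns more often than other distal regions. The summit was in an intron of a coding gene in 54.8% of members (52.7 to 56.9%) and 47.1% of other distal regions (46.4 to 47.9%), between genes in 42.0% and 47.4%, and in an exon in 3.16% and 5.51%. Their coding start was somewhat farther off, at a median of 23518 bp (22049 to 24954) in members and 19520 bp (19092 to 19959) in other distal regions. The layout of whole chains varied. All members sat inside 1 coding gene in 143 chains, all were intergenic in 105, and a protein-coding transcript start fell within the span of 116. The word distal holds for coding starts only: 81 chains (22.8%) spanned a promoter region, and 76 members (3.39%) lay within 1000 bp of the start of a long noncoding RNA (lncRNA). GC content at the summit had the same median, 50.5%, in members and other distal regions.

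The chain with most members stretched over 120 kb of chromosome 4 (145200167 to 145319800) and held 20 regions at the genes of 2 TNF receptors. Tnfrsf1b encodes TNF receptor 2, which promotes the growth of Treg cells, and Tnfrsf8 encodes CD30, a receptor of activated lymphocytes. Tnfrsf1b was the nearest gene of 9 members, Tnfrsf8 of 7 and Vps13d, which encodes a lipid transfer protein, of 4. Along the chain the fold was 6.16, 7.95, 4.64 and 7.40 at the 4 members nearest to Vps13d, then 11.9, 12.8, 10.6 and 7.45 at the intronic members nearest to Tnfrsf1b. It reached 7.72 and 18.8 just upstream of Tnfrsf1b, followed by 6.44, 10.7 and 13.4 farther upstream. The members nearest to Tnfrsf8 had folds of 5.42, 7.54, 11.8, 7.38, 8.25, 6.95 and 12.2. The member of 18.8, at chr4:145254335-145255045, stood apart in strength as well: its −log10 p was 626, against 325 for the next strongest member. It lay 7801 bp upstream of the Tnfrsf1b start and held the AP-1 match shown above. That match also fits the longer BACH/MAF motif (GCTGANTCA), as does the AP-1 match shown at Icos. The Tnfrsf1b window also holds a match to the POU motif (ATGCAAAT), which is not marked.

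The 17 members of the second chain covered 106 kb of chromosome 5 (65850634 to 65956439). Rhoh, which encodes an atypical small GTPase of blood cells needed for T cell receptor signalling, was the nearest gene of 9, and Chrna9, which encodes a subunit of a nicotinic acetylcholine receptor, of the other 8. The 9 members nearest to Rhoh had folds of 11.4, 6.14, 5.36, 5.19, 5.40, 4.29, 4.41, 7.16 and 8.30. The 8 nearest to Chrna9 had folds of 9.44, 6.85, 5.83, 12.1, 19.5, 15, 6.62 and 12.7. The higher folds were thus on the Chrna9 side, with the highest 5543 bp upstream of a Chrna9 start. Nearest in sequence does not mean regulated, and no measurement here links a member to a gene.

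The 14 members of the third chain lay without exception in the introns of Atxn1, the gene of ataxin-1, a partner of the repressor Capicua, over 98.7 kb of chromosome 13 (45837504 to 45936212). An AP-1 match was held by 5 of them, and by 10.5% of members over all chains. The folds of the 14 ran from 6.14 to 18 with a median of 10.8. The highest, the last of the row, was 28938 bp into the gene. The first 4 members lay over 100 kb from its start and are counted with no gene, although they are inside it.

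**Figure D3:**
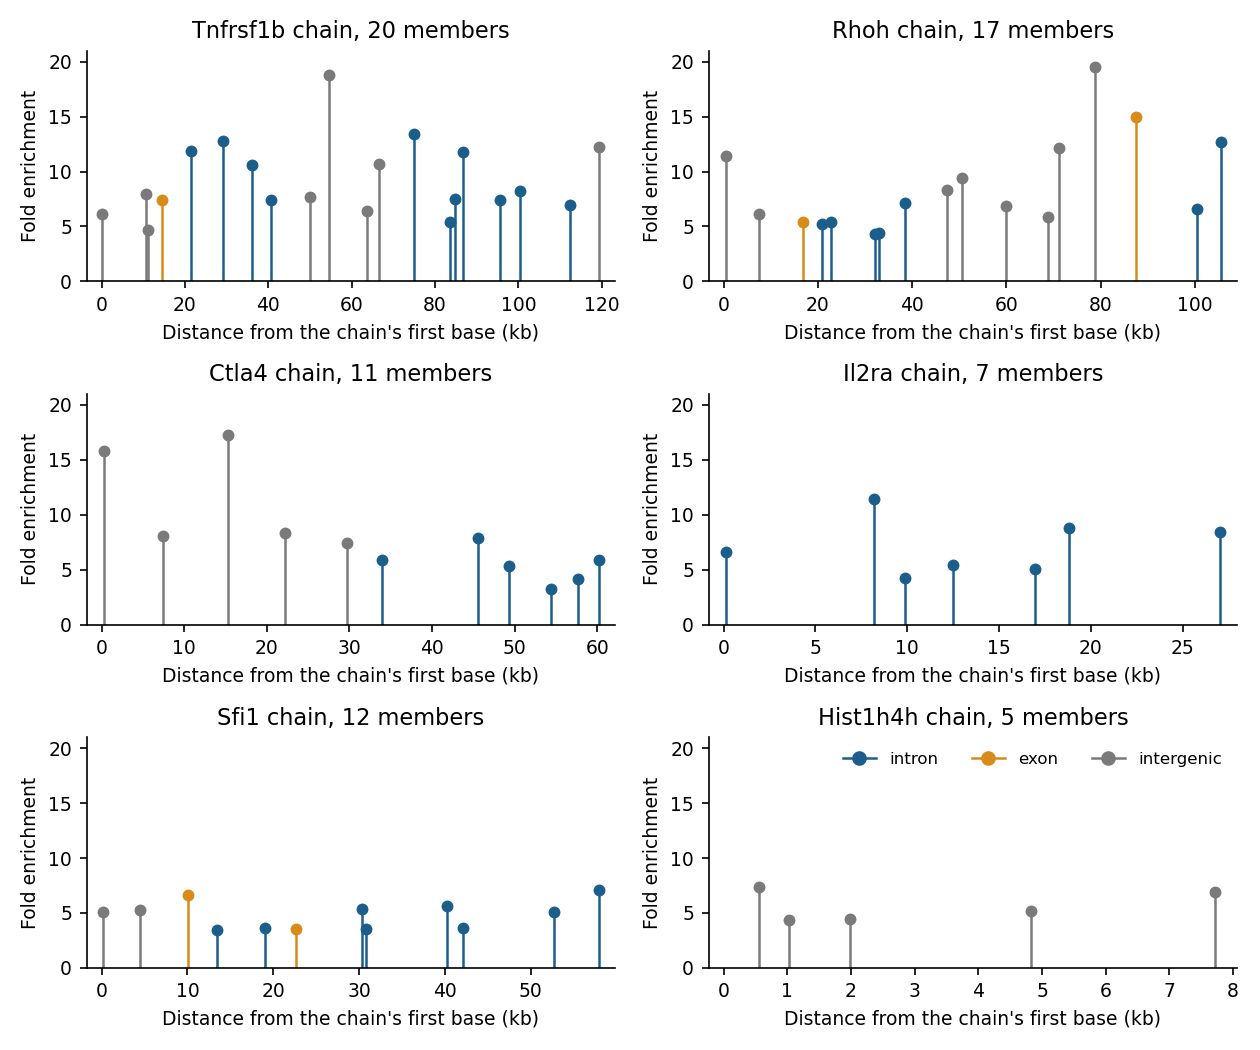
Fold enrichment (y axis, ratio) of each member against the distance of its summit from the first base of the chain (x axis, kb) in 6 chains. Stems are members, coloured by whether the summit is in an intron, an exon or between genes. The chains of Tnfrsf1b, Rhoh and Ctla4 reach 18.8, 19.5 and 17.3, while the 12 members at Sfi1 lie between 3.46 and 7.06.

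Ctla4 and Icos, neighbouring genes of an inhibitory and a costimulatory receptor of T cells that Treg cells carry at high level, had 24 members in 3 chains within 202 kb of chromosome 1 (60853339 to 61055487). The first chain held 11 members, all nearest to Ctla4. Its 5 members 26045 to 55459 bp upstream of the start had folds of 15.8, 8.07, 17.3, 8.35 and 7.45. Closer to the start the folds were 5.90, 7.89, 5.33 and 3.27, and past it 4.17 and 5.86. The 2 highest members were thus 40439 and 55459 bp upstream. The second chain held 7 members between the genes, with folds of 7.08, 6.30, 15.3, 8.66, 9.45, 7.26 and 16.3. The third, beyond Icos, held 6, with folds of 12.3, 7.77, 4.67, 9.91, 15 and 11.6. CTCF matches stood at the members of 17.3, 15.3 and 16.3 and at none of the other 21, the member of 15.8 included. Over all chains CTCF matched 9.49% of members, and it was not more frequent at the highest members (7.61%) than at the rest (9.85%).

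Il2ra, which encodes the alpha chain of the high-affinity interleukin-2 receptor, had 7 members, all in its introns on chromosome 2 (11645333 to 11672500), and had no other distal region. Their folds were 6.60, 11.4, 4.20, 5.40, 5.07, 8.84 and 8.43, and the second, 10700 bp into the gene, was also the strongest with a −log10 p of 274. Tnfrsf18 and Tnfrsf4, adjacent genes of the TNF receptors GITR and OX40, shared 7 members on chromosome 4 (156003876 to 156034044), with folds of 16, 5.14, 5.59, 13.4, 5.84, 4.83 and 7.28. Here 2 of the 7 stood well above the rest, and both held an ETS match. Over all chains ETS matched 18.1% of members. It matched 21.7% (17.5 to 26.3%) of the highest members of chains and 17.4% (15.7 to 19.2%) of the rest, and these intervals overlap. Tigit, which encodes an inhibitory receptor, had 4 of the 6 members of its chain on chromosome 16 (43690042 to 43710309), with folds of 15.1, 3.62, 8.02 and 6.63, and the other 2, nearest to Drd3, had 6.76 and 16.9. Il10, the gene of an anti-inflammatory cytokine, had 6 members with folds between 5.68 and 18.4 over 29.7 kb. Foxp3 itself had 1 distal region and no member. For Ikzf2, which encodes Helios, 1 of 7 distal regions was a member, with a fold of 17.2, in a chain named for Spag16, and Nrp1 had none within 100 kb, although a chain of 8 members with folds of 5.73 to 15.1 lay 130 kb from its start.

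Members lay nearest to many genes that T cells rely on. Of 21829 protein-coding genes, 395 (1.81%) were the nearest gene, with a start within 100 kb, of at least 1 member. Among 22 core genes of Treg cells there were 9 (40.9%, 20.7 to 63.6%), with 51 members: Ctla4, Icos, Il2ra, Tnfrsf18, Tnfrsf4, Tigit, Il10, Ikzf2 and Gpr83. Among 26 genes of effector and tissue Treg cells there were 2 (7.69%, 0.946 to 25.1%), both transcription factors. Irf4, needed by effector Treg cells, had 12 members in 2 chains with folds up to 21.6. Of these, the 5 of the second chain lay in introns of Exoc2, 82304 to 93936 bp from the Irf4 start. Gata3, expressed in Treg cells of tissues and barrier sites, had 5 members in its introns with folds from 3.53 to 7.59. These counts rest on the peak list used, which holds 18613 distal regions. With the authors' longer, pseudoreplicated list, which holds 39049, 15 of the 22 core genes (68.2%) and 16 of the 26 effector genes (61.5%) had members, against 7.40% of all coding genes.

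Of 22 genes of T cell identity 11 had members (interval 28.2 to 71.8%), with 79 in all. Bcl11b, a zinc finger factor required for T cell commitment, had 14 in 2 chains with folds of at most 11.3. Ets1, the leading ETS factor of T cells, had 12 in 2 chains and reached 23.3, and Ikzf1, which encodes Ikaros, had 10 and reached 17.3. The adhesion receptor gene Cd2 had 9 members, Runx1 and Thy1 had 6 each, and Cd5, Cd247 and Lck had 5, 4 and 3. Of 24 genes of T cell receptor signalling 12 had members (interval 29.1 to 70.9%), with 80 in all. Itpr1, the gene of a calcium release channel, had 13, Prkcq, which encodes protein kinase C theta, had 12, and Rasgrp1, which encodes an activator of Ras, had 9. Plcg1 had 7, with a highest fold of 20.5, and the inhibitors Cblb, Ptpn22, Nfkbia and Tnfaip3 had 6, 6, 5 and 2.

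Of 18 genes that mark or keep T cells naive or quiescent, 7 had members (38.9%, 17.3 to 64.3%): Btg1 with 10, Bach2 with 9, Foxp1 and Btg2 with 7 each, Klf2 with 6, Tcf7 with 5 and Id3 with 2. The highest folds were 21.7 at Btg1 and 21.2 at Klf2. Bach2, a repressor that competes with AP-1, and Bach1 were the 2 genes with members among 16 AP-1 and Bach genes (12.5%, 1.55 to 38.3%), an interval that includes the 1.81% of all genes. With the pseudoreplicated list 6 of the 16 had members. Of 25 genes of cytokines and their receptors 5 had members (interval 6.83 to 40.7%): Il6st with 8, Ifng with 6, Il21r with 5, and Tnf and Lta with 1 each. Of 20 genes of chemokine receptors and integrins there were 2 (interval 1.23 to 31.7%, or 12 with the pseudoreplicated list), Ccr1 with 6 and Cxcr4 with 5. None of 13 B cell, 12 liver and 16 muscle or neuron genes had a member, which allows shares of up to 24.7%, 26.5% and 20.6%. Of 18 myeloid genes 1 had members, Irf8 with 4, and of 18 housekeeping genes 1 had members. The intervals of these 5 lists include 1.81%.

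**Figure D4:**
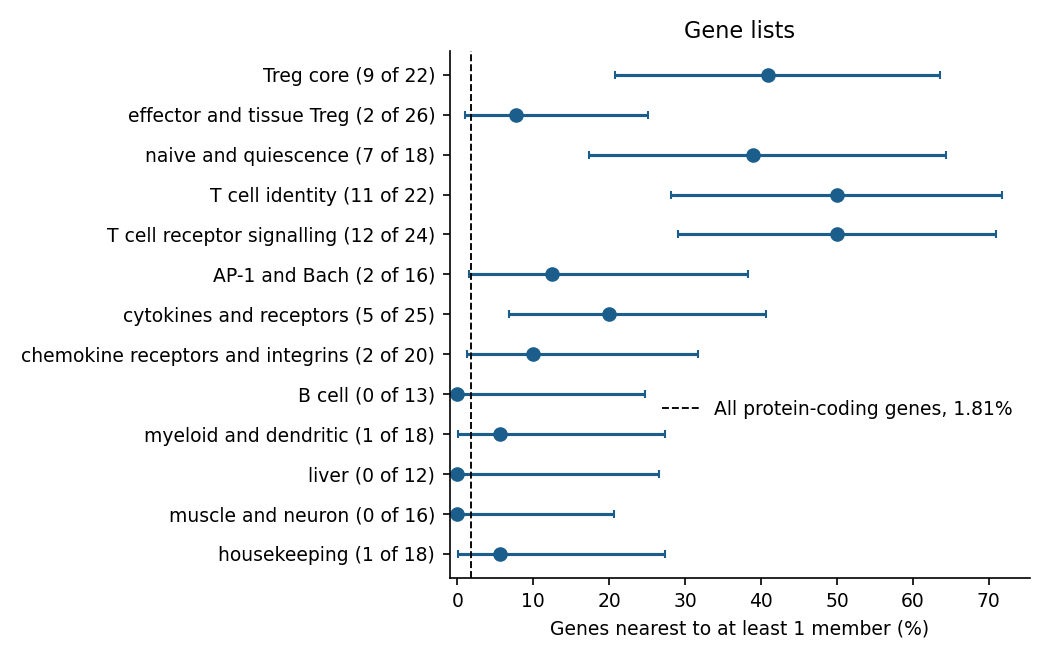
Share of the genes of each list that are the nearest gene of at least 1 member (x axis, %), with the genes that have members and the genes in the list in brackets. Points are shares and bars 95% exact binomial intervals. The dashed line is the share among all protein-coding genes, 1.81%. The lists of Treg core, naive, T cell identity, T cell receptor signalling and cytokine and receptor genes have intervals wholly above it, and the B cell, liver and muscle or neuron lists are at 0.

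Genes with members were longer and more often had an open promoter, both of which moved with the counts above, and their part in them was not tested. The 395 genes had a median length of 38.1 kb (34.1 to 46.0), against 28.5 kb (27.5 to 29.6) for the 6625 genes that were nearest to other distal regions only. A promoter region was present at 83.0% (79.0 to 86.6%) and 70.2% (69.1 to 71.3%) of the same genes, and its median fold was 11.9 and 15.2. The share of genes with members was 4.07% (3.33 to 4.92%) among genes over 100 kb long, against 0.989% (0.818 to 1.19%) among those of at most 20 kb.

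By members alone the leading genes were Akap13 with 18 in 4 chains, Prkch with 17 in 2 and Sema4d with 15 in 2. Akap13 encodes a scaffold for protein kinase A, Prkch encodes protein kinase C eta, and Sema4d encodes a semaphorin of T cells. Members of 23 genes lay in 2 or more chains. In 29 places chains lay within 100 kb of each other, and in 6 of these there were 3 or more. At Fli1 and Ets1, adjacent genes of ETS factors, 4 chains with 24 members spread over 258 kb of chromosome 9 (32487346 to 32745479). At Prkch 3 chains with 26 members lay within 128 kb of chromosome 12 (73593087 to 73721025), separated by 13.3 and 22.9 kb. Gaps only slightly over the limit thus split some loci into several chains.

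The others of the 20 chains with most members lay at genes of varied function. Of 22 chains with 10 or more members, the 2 of 10 with the lowest summed fold are outside these 20. Prkcq had 12 members in 1 chain with folds of 4.24 to 16.4, and 12 intergenic members lay nearest to Irf2bpl or Lrrc74a with folds of 3.39 to 15.4. Fam208a, which encodes a subunit of the silencing complex HUSH, and Arhgef3, which encodes a guanine nucleotide exchange factor, shared 13. The 11 members at Ago2, the gene of the slicer of RNA interference, were all in introns and had folds of 4.60 to 18.2. Lims1, whose product links integrins to the cytoskeleton, had 10 intronic members with the highest median fold among the 20 chains with most members, 14.6. The rest were named for St6galnac5, Tomm20, Rap1b, Ablim1, Ppp1r16b, Ikzf1, Btg1, Vgll4 and Sema4d, and each held 10 members.

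Some chains had no coding start in reach. There were 26, with 5 to 14 members each. The largest held 14 intergenic members over 75.1 kb of chromosome 6 (31146764 to 31221888), 177 kb from the closest coding start, that of Mkln1, and overlapped the lncRNA gene Lncpint. The 6 others named here are a few of the 26, chosen after their values were seen. A chain of 9 was 205 kb from the start of Ets1, and a chain of 7 was 178 kb from Myc and overlapped the lncRNA Pvt1. Chains of 6 lay 155 kb from Zfp36l2 and 163 kb from Bcl6, and chains of 5 lay 197 kb from Id2 and 131 kb from Bcl2, and the closest gene need not be the one concerned.

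A few chains lay over arrays of small RNA genes. The densest chain, 5 members in 7.83 kb of chromosome 13 (23517128 to 23524959), lay 6202 bp or more upstream of the histone gene Hist1h4h with folds of 7.38, 4.33, 4.42, 5.14 and 6.88. The first 4 of its members overlapped tRNA genes of the RefSeq annotation, for glycine and methionine, serine, glutamine and serine. The sequence printed above for Hist1h4h runs into the methionine tRNA gene. In the chain named for Abt1, on the same chromosome, 5 of 6 members overlapped tRNA genes, with folds of 6.02 to 12.9. At Eapp all 6 members, with folds of 5.21 to 12.5, overlapped genes of the U1 spliceosomal RNA, and at Tex14 4 of 6 overlapped genes that RefSeq names U3B small nuclear RNA. Over all chains this was rare: 10 members overlapped a tRNA gene (0.446%, 0.214 to 0.818%), as did 75 other distal regions (0.458%, 0.361 to 0.574%), and 10 members overlapped a small nuclear RNA gene (0.446%) against 29 other distal regions (0.177%, 0.119 to 0.254%).

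In 6 chains most summits lay in repeated sequence. Reads from sequence present more than once cannot be placed with certainty, and no source used here states how they were treated. The 31 bases at the summit occurred more than once in the genome in 56 members (2.50%, 1.89 to 3.23%), against 2.22% (2.00 to 2.45%) of other distal regions. The 6 chains were those named for Sfi1, Tex14, Scaf8, Eapp, Mthfs and Mid1. At Sfi1, a gene of a centrosomal protein on chromosome 11 (3123504 to 3181605), all 12 summits occurred in 2 copies, and the highest fold, 7.06, was below the median fold of all members.

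Short motifs at the summits were much alike in members and other distal regions, with CTCF as the main exception. A motif was counted where its letters occurred on either strand within 50 bp of the summit, so a match describes the sequence and is not a bound site. CTCF matched 9.49% of members (8.31 to 10.8%) and 14.2% of other distal regions (13.6 to 14.7%). Among members it was present at 11.7% (9.42 to 14.3%) of the first and last of each chain and at 8.47% (7.13 to 9.98%) of the inner ones. These intervals overlap. The AP-1 letters lie within those of BACH/MAF, and the ETS core within those of ETS. ETS matched 18.1% of members (16.5 to 19.7%) and 16.3% of other distal regions (15.8 to 16.9%). At least 1 match was found in 252 chains (71.0%), a share that the number of members in a chain makes large by itself. AP-1 matched 10.5% (9.24 to 11.8%) and 8.51% (8.09 to 8.95%), a difference whose sign turned when gaps were limited to 5 kb. The E protein motif (CAGCTG) matched 8.11% (7.01 to 9.32%) and 6.75% (6.37 to 7.15%). Of these 3, the intervals of AP-1 did not overlap. RUNX matched 8.96% (7.81 to 10.2%) and 8.94% (8.50 to 9.39%), and TCF/LEF matched 2.94% and 2.89%. Of the motifs of factors that mark other tissues, HNF4 (CAAAGTCCA) matched 0.134% of members and 0.0733% of other distal regions, and MEF2 (CTATTTATA) 0.223% and 0.141%. Both have 9 letters, against 7 for ETS, and longer motifs match less often anywhere. In windows centred 500 bp to either side of member summits HNF4 matched 0.156%, MEF2 0.223% and ETS 3.32%. The highest members of the chains had an ETS match in 21.7% (17.5 to 26.3%) and the rest in 17.4% (15.7 to 19.2%).

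**Figure D5:**
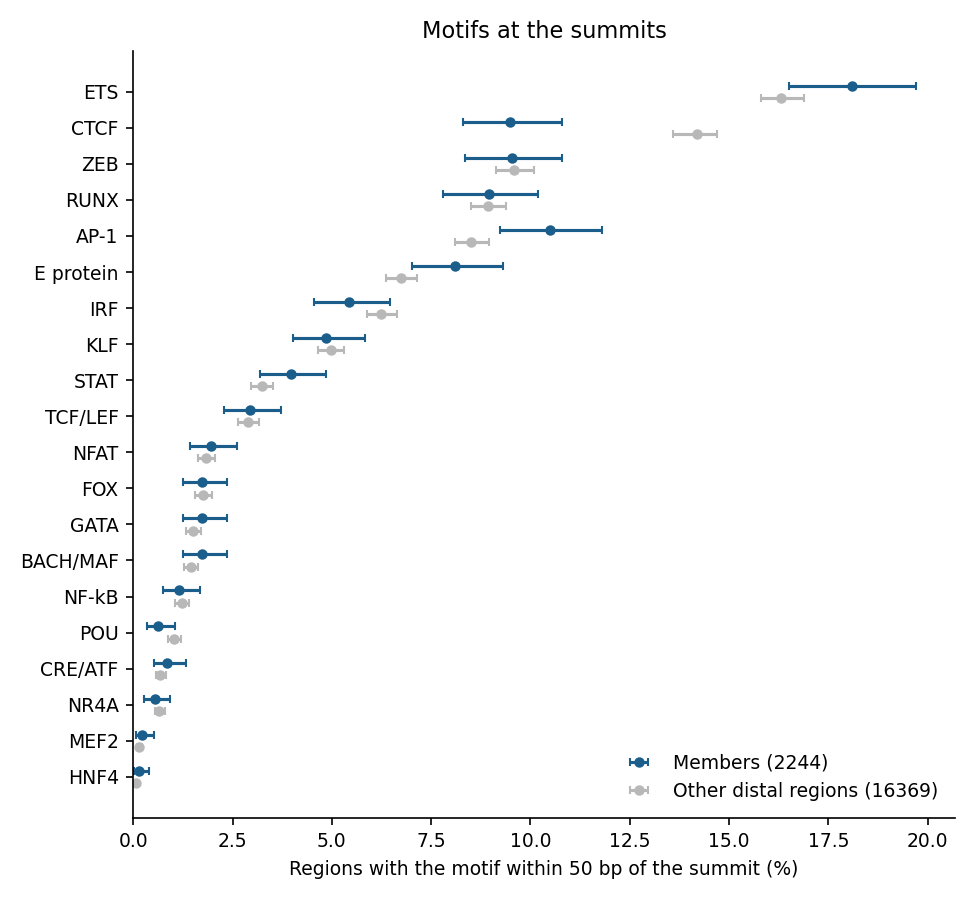
Share of regions with each motif within 50 bp of the summit (x axis, %), in the 2244 members (blue) and the 16369 other distal regions (grey). Points are shares and bars 95% exact binomial intervals. CTCF is at 9.49% in members and 14.2% in other distal regions; ETS and AP-1 are slightly higher in members.

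Members overlapped enhancers listed by RefSeq, most of them VISTA elements, pieces of DNA that drove a reporter in mouse embryos. There were 24 such members (1.07%, 0.686 to 1.59%) in 16 chains, against 66 other distal regions (0.403%, 0.312 to 0.513%). An element can span several kilobases and so hold several members, as at Btg2, where 3 members with folds of 11.3, 3.19 and 5.48 lay in 1 element active in the embryonic nervous system. The member at chr16:92801553-92802127, the highest of the 6 at Runx1 with a fold of 14.3, overlapped the +23 enhancer, which is active in the embryo where blood cells first form.

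The 5 most enriched members were all intergenic and had a single summit. The highest of all, with a fold of 33.9 and a −log10 p of 436, lay at chr17:70963584-70963964, 14800 bp downstream of the start of Myl12b, which encodes a myosin regulatory light chain. The next had folds of 30 at Creb3l2, 27.9 at Cd200r3, 27.9 nearest to Gtf2ird1 in the chain named for Gtf2i, and 25.9 at Trio. Their chains held 5 or 6 members each, and the lowest fold in them was 4.22.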

How the data were processed

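The labels describe 2 ATAC-seq samples, technical replicates of 1 biological replicate. The authors deposited 3 peak lists on mm10, which are the same for each sample per the text files deposited with them, so they were taken to pool the libraries. Each deposited peak has a fold enrichment (a linear ratio), a −log10 p, a score of up to 1000 and a summit, given by the authors as an offset. The ranked list adds the −log10 IDR and the −log10 p in each of the paired sets. The aligner, caller, versions, Tn5 shift, fold background and IDR threshold were not stated in any source used here, and without read counts the depth is unknown.

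The thresholded list (58138 peaks) was used. Overlapping or touching peaks were merged, and the row of greatest fold gave the summit and fold, with the greatest −log10 p kept. Coding starts came from GENCODE M21, small RNA genes, enhancers and sequences from RefSeq GRCm38.p6. A chain is named for the gene nearest to most of its members. Named are the 20 chains with most members, the 5 densest, those of the 5 highest members, up to 4 per gene list, those of marker genes, and others chosen after their values were seen (Il10, Prkch, Akap13, Ets1, Fli1, Runx1, Tcf7, chains without a gene, small RNA arrays). The 20 motifs, 13 gene lists, members and rules were chosen with earlier results of these data known. Copies of the 31 bases at a summit were counted on both strands. No test was made, since 1 biological replicate in 1 group allows none. The merging, chaining and intervals were checked on simulated peaks. Alternatives varied the list, gap, chain size, start distance, height and motif window. Python 3.11.15, pandas 2.3.3, numpy 2.4.6, scipy 1.17.1, pysam 0.24.0 and matplotlib 3.10.9 were used. Some items are not reported here.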

Additional observations from a re-analysis of the deposited data

How the results depend on the processing

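The number of members follows the limits that define them. In place of 2244 members in 355 chains there were 11385 in 1475 with the pseudoreplicated list, 220 in 39 with a gap of at most 5 kb and 5476 in 732 with at most 25 kb. Chains of 4 or more gave 3624 in 700, chains of 6 or more 1479 in 202, and keeping promoter regions 4871 in 757. The upper 50% of regions by fold left 5 members in 1 chain, and the upper 50% by −log10 p, a setting chosen after seeing the data, 89 in 17. The other 8 settings moved both counts by less than 1.5 times: 2246 in 355 with ranked peaks at an IDR of 0.05 or below, 2058 in 330 with gaps between summits, 2507 in 395 and 1989 in 318 with starts 500 and 2000 bp away, 1732 in 279 with the starts of transcripts of every type, and 2244 in 355 with the summit at the greatest −log10 p. Chosen after seeing the data were regions without repeated summits (2148 in 340) and without tRNA genes (2228 in 352). The median fold of members was 6.11 with gaps of at most 5 kb, 10.2 with at most 25 kb and 6.45 in the pseudoreplicated list, where the median −log10 p of members was 32.4 in place of 72.1.

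The AP-1 difference between members and other distal regions, 1.96 percentage points, was −1.95 points with gaps of at most 5 kb; the cause was not tested. The CTCF difference was −4.68 points, and −5.95 with that gap and −2.62 at the midpoint of the region. The ETS difference of 1.77 points was 0.285 with gaps of at most 5 kb and 2.60 at the midpoint of the region. It was 1.39 with the core GGAAGT and 0.0929 with CGGAAGT, both chosen after seeing the data. With gaps of at most 5 kb 2 of 22 core Treg genes had members, against 41 of all coding genes, and with the pseudoreplicated list 15 of 22 had them, against 1615. The pseudoreplicated list gave 16 in place of 2 of 26 effector and tissue Treg genes, 12 in place of 2 of 20 chemokine receptor and integrin genes and 6 in place of 2 of 16 AP-1 and Bach genes. Counting gene bodies that a member overlapped gave 4 in place of 7 of 18 naive genes and 2 in place of 5 of 25 cytokine genes and receptors. The same count gave 6 in place of 9 of 22 core Treg genes and 9 in place of 12 of 24 T cell receptor signalling genes. T cell identity genes stayed at 11 of 22, and all coding genes went from 395 to 278 (1.27%). No paired analysis was possible because the lists pool both technical replicates and hold no values by sample; for the same reason no replicate could be left out. Depth, which sets how many weak neighbours are called, is unknown.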

Other observations

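Chains differed in how evenly their members were enriched. In 75 of the 355 chains (21.1%) the highest member had at least 4 times the fold of the lowest. At Ets1 both kinds stood side by side: in the chain of 24.9 kb the first member reached 23.3 and the lowest was 3.84, whereas in the next, of 17.1 kb, the 6 members lay between 3.83 and 6.72. The chain at Ccr1, the gene of a receptor for inflammatory chemokines, packed 6 intergenic members into 12.9 kb with a median gap of 381 bp and folds of 3.87 to 9.23. The Kbtbd11 chain held 7 members within 11.6 kb, all inside introns of Arhgef10, with folds of 3.09 to 8.52.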
